A study of Mus musculus with 34 samples.

Results

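RNA of 52 genes of BMP, activin and TGF-beta signalling was measured in 10 groups of mouse cells, among 8252 genes that the arrays read under 1 symbol each. The genes were taken by symbol: every measured Bmp, Smad, Tgfb, Acvr, Inha or Inhb, Gdf and Ltbp gene, together with Fst, Fstl1, Grem1, Nog and Chrd, and without Gdf3. The rule reads symbols and no measured value, although the family was chosen with earlier results of these data known. For the 9 genes with several probe sets, the brightest over all arrays stood for the gene. By role the genes were 13 BMP and GDF ligands, 5 activin and inhibin subunits, 3 TGF-beta ligands, 5 secreted antagonists, 4 latent TGF-beta binding proteins (Ltbp), 11 receptors and 7 Smads. The other 4 are named after the pathway without being ligands, receptors or Smads.

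Ligands of this family are secreted dimers that bind complexes of serine/threonine kinase receptors, which phosphorylate Smad proteins. BMPs act mainly through Smad1 and Smad5, activins and TGF-betas mainly through Smad2 and Smad3, and both arms share Smad4, while Smad6 and Smad7 inhibit. Secreted proteins such as follistatin (Fst), noggin and chordin bind ligands, and some Ltbp proteins hold latent TGF-beta in the matrix. In the mouse embryo BMP signals are needed for germ cells to form, and in culture BMP together with the cytokine LIF can maintain mouse embryonic stem cells.

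The pluripotent groups were male embryonic germ cells derived at E12.5 (EGC, passage 19, LIF and serum, 3 arrays), male embryonic stem cells (ESC, passage 9 to 14, LIF and serum, 2 arrays) and the E3.5 inner cell mass of both sexes, isolated by immunosurgery (ICM, 3 arrays). Primordial germ cells (PGC), sorted as positive for an Oct4/GFP reporter, were female at E13.5 (3 arrays), male at E13.5 (3 arrays) and of mixed sex at E11.5 (4 arrays). The somatic groups were mixed-sex embryonic fibroblasts of E13.5 (MEF, passage 2 in serum, 6 arrays) and the reporter-negative cells of E11.5 gonad and mesonephros, also of mixed sex (SGM, 4 arrays). Adult groups were neurospheres of the sub-ventricular zone at 8 weeks (NSC, mixed sex, passage 1 in EGF, 2 arrays) and male bone marrow cells at 8 weeks (HSC, 2 arrays), a Side Population that was Lin-, CD34-, c-Kit+ and Sca-1+. All were C57Bl/6 except ICM: replicates 2 and 3 were C57Bl/6 x C3H F1, and replicate 1 came from that F1 crossed with CD1. The labels call the replicates biological without naming litters or cultures, and MEF, SGM and PGC groups are mixtures of all cells that passed the isolation.

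Values are log2 signal, and each difference is a log2 difference with its standard error (SE) from limma. Calls were made where the two-sided limma p, adjusted by Benjamini-Hochberg over all 8252 genes, was under 0.05. Of 34 deposited columns 32 were used, since ESC replicate 3 and PGC E11.5 replicate 5 equal the mean of the other columns of their group. Pluripotency and neural stem markers followed the labels. The summed linear signal of 4 pluripotency genes was 7590 to 21900 per array in the 6 pluripotent groups and 232 to 312 in the 4 somatic groups, and 4 neural stem genes summed to 24400 to 25500 in NSC. For HSC only 2 of 4 listed genes were measured (1560 to 1860), and of these Meis1 was higher in SGM (7.15) than in HSC (6.79). The germ cell list did not set E13.5 germ cells apart from ICM and ESC. Its sum was 4520 to 5580 in ICM and 4000 to 4150 in ESC. In PGC E13.5 female it was 3830 to 4600, and in PGC E13.5 male 3830 to 4800. Gata4 of the gonad list was no higher in SGM (8.84) than in EGC (8.98). Bacterial control probe sets, which mouse RNA should not light, had group means of 3.30 to 7.07 in 8 groups but reached 13.79 in NSC and 13.64 in HSC, so background cannot be read there. In 18 of the 52 genes (34.6%; 23.8% of all genes) every one of the 10 group means stayed under 7.07, so these genes may not exceed background in any group. They are Acvr1, Bmp2, Bmp2k, Bmp6, Bmp8a, Bmp8b, Bmp10, Bmp15, Bmpr1b, Gdf5, Gdf10, Gdf11, Inhbc, Smad3, Smad5, Tgfbr1, Tgfbr2 and Tgfbr3.

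In measured signal, most family members differed little between the cell groups, and a few differed widely. Small differences in the 18 genes under 7.07 may be differences of background. The highest and lowest group means were at least 2-fold apart in 25 of 52 genes (48.1%; 60.7% of all genes) and at least 4-fold apart in 12 (23.1%; 29.4% of all genes). At 8-fold the order turned, with 10 of 52 genes (19.2%) against 11.8% of all genes. The median log2 range was 0.97 over the 52 genes and 1.30 over all genes. BMP and GDF ligands ranged least on their brightest probe sets, with none of 13 at 4-fold and a largest log2 range of 1.35. Among them, only Bmp4, Bmp5, Bmp7 and Gdf9 had any group mean above 7.07, so the small ranges of the others may be those of background. The dimmer Bmp4 probe set ran from 4.39 in PGC E13.5 female to 7.56 in ICM. All 3 TGF-beta ligands passed 2-fold, with a median range of 3.33. Of the 12 genes at 4-fold, 9 were highest in MEF (75.0%; 24.3% of the genes at 4-fold overall), 2 in SGM and 1 in ICM.

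**Figure D1:**
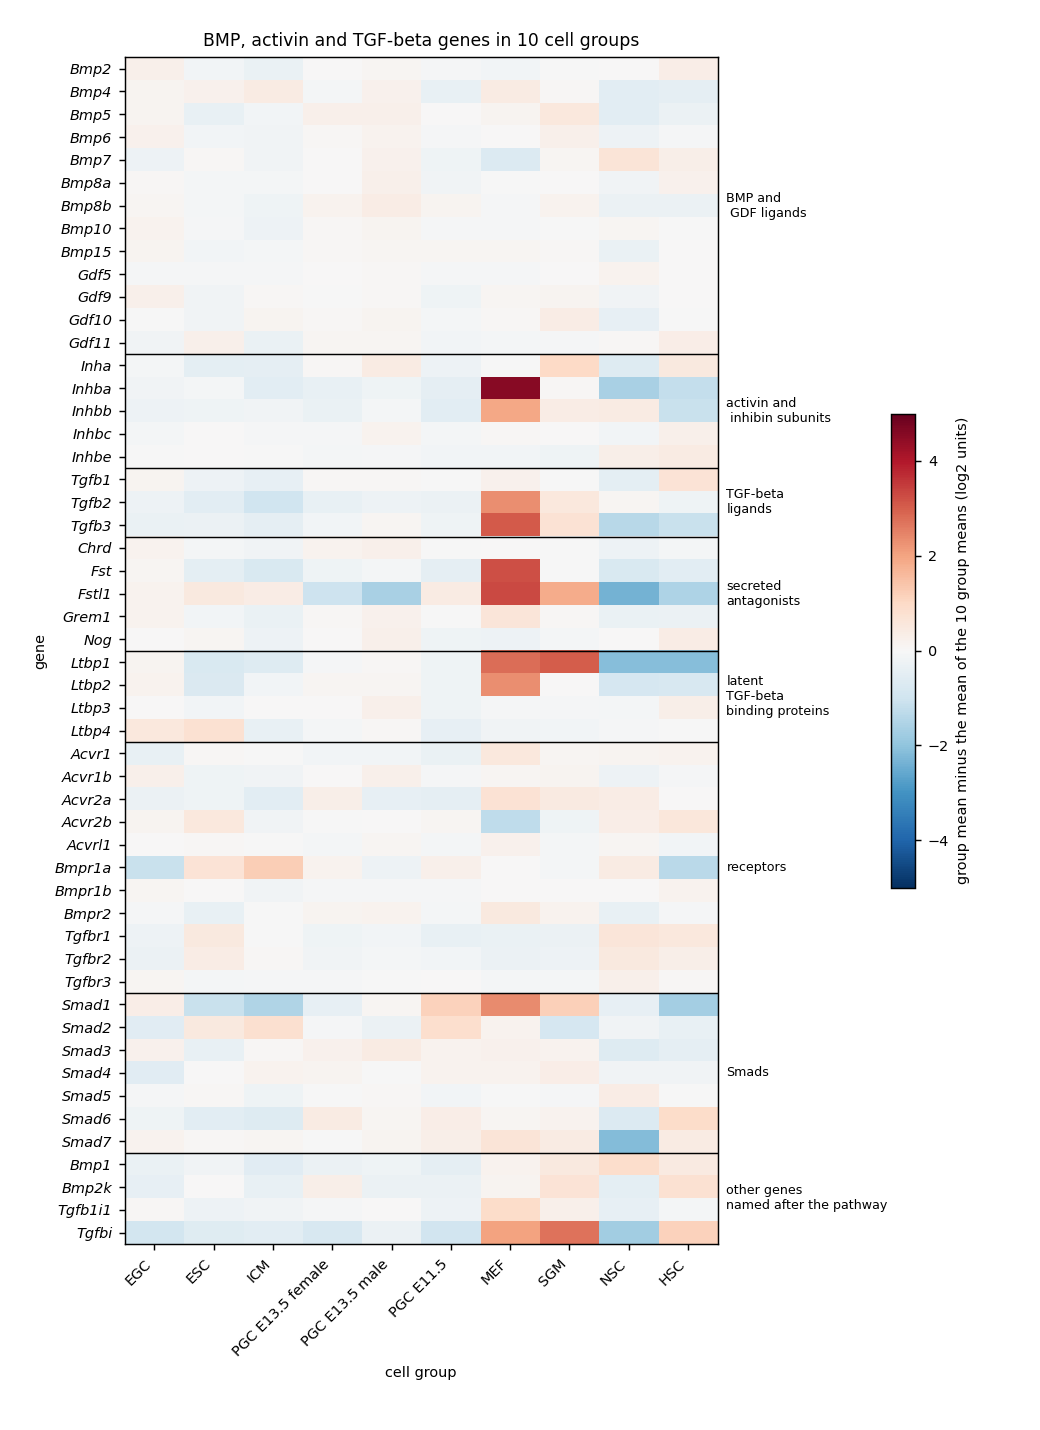
Mean log2 signal of each of the 52 genes (rows, by role) in the 10 cell groups (columns, pluripotent left of somatic), drawn as the group mean minus the mean of the 10 group means, in log2 units. Strong red cells mark Inhba, Tgfb3, Fst and Fstl1 in MEF and Ltbp1 and Tgfbi in SGM, while the BMP and GDF ligand rows are pale, with no log2 range above 1.35.

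The 12 genes at 4-fold are described by role, as mean ± SD in log2 signal over the arrays of each group. Inhba encodes the subunit of activin A and was 7.82 ± 0.23 in EGC, 7.90 ± 0.31 in ESC, 7.47 ± 0.07 in ICM, 7.63 ± 0.06 in PGC E13.5 female, 7.79 ± 0.08 in PGC E13.5 male and 7.53 ± 0.06 in PGC E11.5. In the somatic groups Inhba was 12.53 ± 0.28 in MEF, 8.05 ± 0.22 in SGM, 6.38 ± 0.11 in NSC and 6.82 ± 0.75 in HSC. MEF stood alone, and the other 9 group means lay between 6.38 and 8.05, with HSC the most variable. Inhbb, the subunit of activin B, was 6.21 ± 0.07 in EGC, 6.24 ± 0.31 in ESC, 6.28 ± 0.43 in ICM, 6.14 ± 0.05 in PGC E13.5 female, 6.37 ± 0.20 in PGC E13.5 male and 5.93 ± 0.13 in PGC E11.5. Its somatic means were 8.40 ± 0.21 in MEF, 6.83 ± 0.23 in SGM, 6.86 ± 0.28 in NSC and 5.33 ± 0.16 in HSC. Only the MEF mean of Inhbb exceeded 7.07.

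Among the TGF-beta ligands, Tgfb2 was 5.80 ± 0.34 in EGC, 5.54 ± 0.14 in ESC, 5.06 ± 0.24 in ICM, 5.70 ± 0.09 in PGC E13.5 female, 5.81 ± 0.11 in PGC E13.5 male and 5.76 ± 0.02 in PGC E11.5. It was 8.39 ± 0.25 in MEF, 6.59 ± 0.33 in SGM, 6.18 ± 0.13 in NSC and 5.84 ± 0.12 in HSC. MEF was again the only group above 7.07. Tgfb3 was 8.12 ± 0.24 in EGC, 8.14 ± 0.27 in ESC, 7.98 ± 0.13 in ICM, 8.32 ± 0.04 in PGC E13.5 female, 8.55 ± 0.08 in PGC E13.5 male and 8.23 ± 0.09 in PGC E11.5. Its somatic means were 11.53 ± 0.17 in MEF, 9.18 ± 0.14 in SGM, 7.05 ± 0.18 in NSC and 7.35 ± 0.32 in HSC. The order of Tgfb3 was thus MEF, then SGM, then the pluripotent groups, with the adult cells lowest.

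The antagonist Fst, which binds and neutralises activin, was 7.27 ± 0.18 in EGC, 6.69 ± 0.08 in ESC, 6.40 ± 0.04 in ICM, 6.98 ± 0.03 in PGC E13.5 female, 7.09 ± 0.21 in PGC E13.5 male and 6.72 ± 0.20 in PGC E11.5. It was 10.41 ± 0.26 in MEF, 7.17 ± 0.14 in SGM, 6.40 ± 0.10 in NSC and 6.66 ± 0.03 in HSC. Like Inhba, it stood high in MEF alone. Fstl1, a secreted follistatin-like glycoprotein, was 9.24 ± 0.08 in EGC, 9.56 ± 0.14 in ESC, 9.44 ± 0.46 in ICM, 8.03 ± 0.47 in PGC E13.5 female, 7.47 ± 0.45 in PGC E13.5 male and 9.49 ± 0.32 in PGC E11.5. Its somatic means were 12.38 ± 0.13 in MEF, 10.94 ± 0.31 in SGM, 6.70 ± 0.46 in NSC and 7.55 ± 0.19 in HSC. Fstl1 therefore had intermediate levels in EGC, ESC, ICM and E11.5 germ cells, and low ones in E13.5 germ cells and adult cells.

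Ltbp1, which carries latent TGF-beta, was 7.66 ± 0.04 in EGC, 6.73 ± 0.00 in ESC, 6.88 ± 0.17 in ICM, 7.43 ± 0.16 in PGC E13.5 female, 7.55 ± 0.16 in PGC E13.5 male and 7.28 ± 0.21 in PGC E11.5. It was 10.29 ± 0.23 in MEF, 10.52 ± 0.50 in SGM and 5.36 in both NSC and HSC (SD 0.00 and 0.06). MEF and SGM were both high, and the difference between them was not called (-0.23 ± 0.16, limma adjusted p = 0.226). Ltbp2, a matrix protein of the same family, was 6.39 ± 0.12 in EGC, 5.48 ± 0.03 in ESC, 6.07 ± 0.25 in ICM, 6.29 ± 0.10 in PGC E13.5 female, 6.29 ± 0.21 in PGC E13.5 male and 5.97 ± 0.15 in PGC E11.5. Its somatic means were 8.54 ± 0.20 in MEF, 6.23 ± 0.10 in SGM, 5.35 ± 0.19 in NSC and 5.40 ± 0.16 in HSC. In contrast to Ltbp1, SGM showed no high level of Ltbp2. Tgfbi, a matrix protein named for its induction by TGF-beta, was 5.62 ± 0.15 in EGC, 5.91 ± 0.07 in ESC, 5.99 ± 0.12 in ICM, 5.73 ± 0.14 in PGC E13.5 female, 6.22 ± 0.14 in PGC E13.5 male and 5.57 ± 0.16 in PGC E11.5. It was 8.53 ± 0.28 in MEF, 9.24 ± 0.24 in SGM, 4.78 ± 0.05 in NSC and 7.69 ± 0.32 in HSC. The 6 pluripotent means of Tgfbi all lay between those of NSC and HSC.

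Inside the cell, the BMP receptor gene Bmpr1a was 5.71 ± 0.21 in EGC, 7.51 ± 0.35 in ESC, 8.04 ± 0.33 in ICM, 7.02 ± 0.25 in PGC E13.5 female, 6.59 ± 0.20 in PGC E13.5 male and 7.07 ± 0.27 in PGC E11.5. It was 6.86 ± 0.20 in MEF, 6.72 ± 0.14 in SGM, 7.25 ± 0.35 in NSC and 5.48 ± 0.45 in HSC. Bmpr1a was the only gene of the 12 that peaked in a pluripotent group. Smad1, the mediator of BMP signals, was 10.76 ± 0.26 in EGC, 9.31 ± 0.13 in ESC, 8.93 ± 0.18 in ICM, 10.03 ± 0.55 in PGC E13.5 female, 10.54 ± 0.44 in PGC E13.5 male and 11.56 ± 0.43 in PGC E11.5. Its somatic means were 12.79 ± 0.29 in MEF, 11.62 ± 0.08 in SGM, 10.01 ± 0.03 in NSC and 8.72 ± 0.10 in HSC. The spread of Smad1 among the pluripotent groups reached from the level of HSC in ICM to that of SGM in E11.5 germ cells. The inhibitory Smad7 was 9.04 ± 0.11 in EGC, 8.92 ± 0.06 in ESC, 8.98 ± 0.47 in ICM, 8.84 ± 0.13 in PGC E13.5 female, 8.99 ± 0.20 in PGC E13.5 male and 9.15 ± 0.12 in PGC E11.5. It was 9.49 ± 0.21 in MEF, 9.26 ± 0.12 in SGM, 6.70 ± 0.01 in NSC and 9.26 ± 0.06 in HSC, so its range rests on NSC alone.

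**Figure D2:**
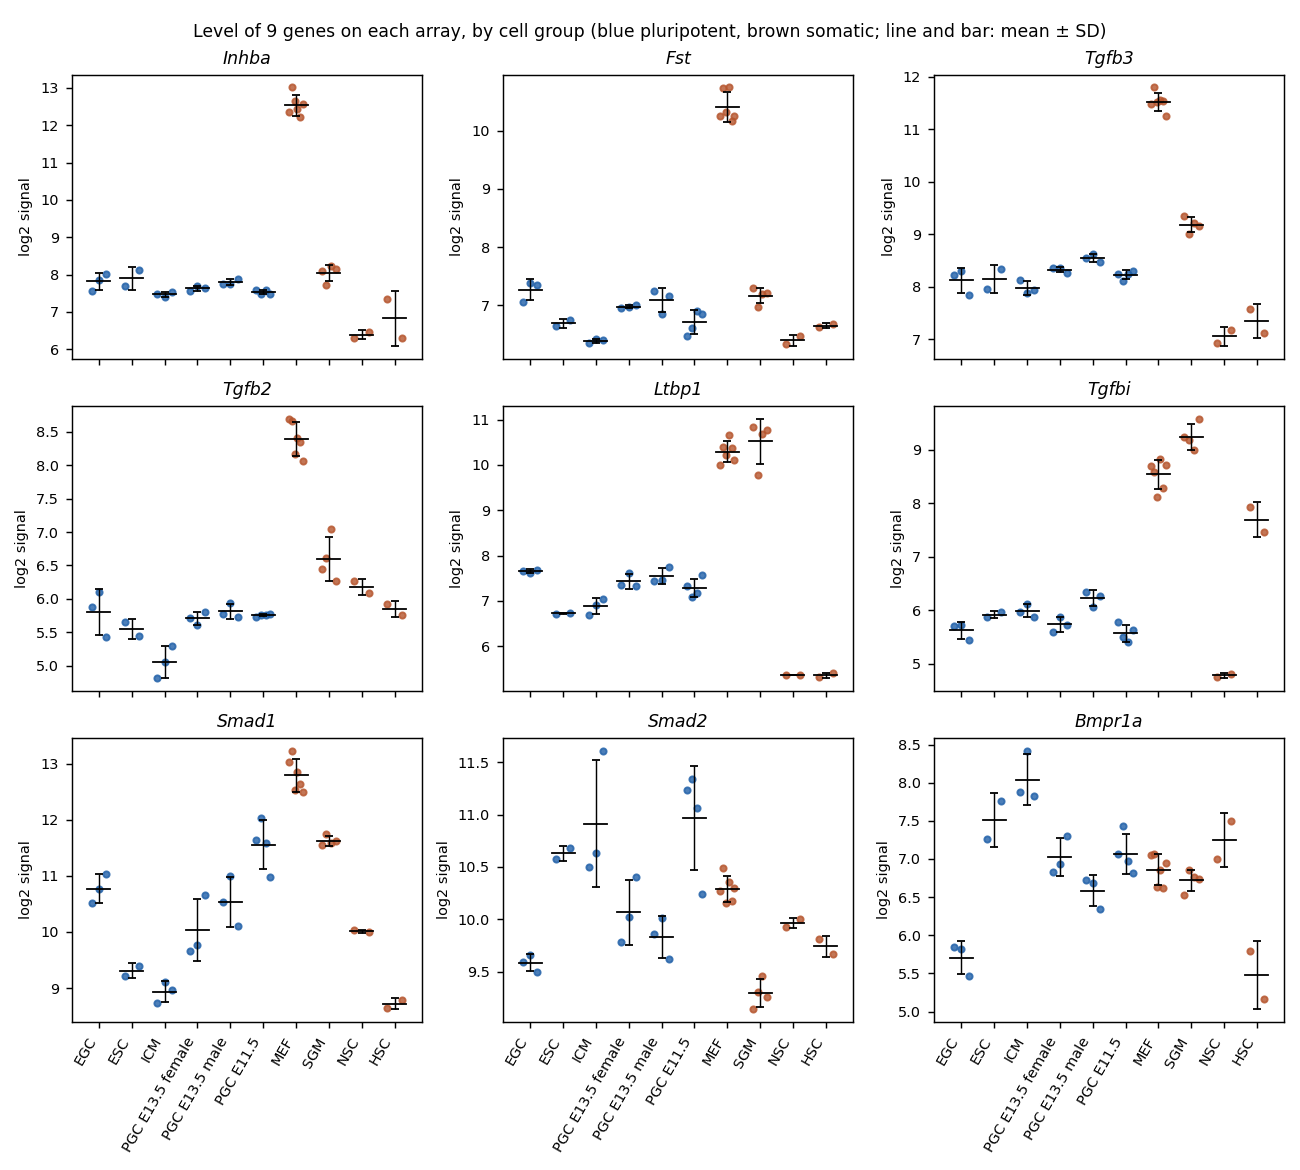
Log2 signal of 9 genes on each of the 32 arrays, by cell group along the horizontal axis (blue pluripotent, brown somatic); the long line is the group mean and the bar 1 SD on either side. Inhba and Fst were high on the 6 MEF arrays only, at or above 12.21 and 10.17, whereas Ltbp1 and Tgfbi were high in MEF and SGM.

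Cultured fibroblasts were set against the fetal gonad and mesonephros cells to compare both somatic groups of the embryo. Both activin subunit genes Inhba and Inhbb, the ligand genes Tgfb2 and Tgfb3 and the activin antagonist Fst were at least 2-fold higher in MEF. Acvr2b and Inha were at least 2-fold lower, and 5 BMP and GDF ligands were lower by less than 2-fold. Of the 52 genes 25 were called (48.1%), where 49.8% of all genes were called. At 2-fold 10 were called (19.2%; 14.8% of all genes), of which 8 were higher (15.4%; 8.28% of all genes) and 2 lower (3.85%; 6.54% of all genes). At any size 15 were higher (28.8%; 22.2% of all genes) and 10 lower (19.2%; 27.6% of all genes). The split became 18 and 8 with every array centred on its median, and over all genes 1830 higher and 2278 lower became 2250 and 1758.

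Inhba was 12.21 at the lowest, 12.49 at the median and 13.01 at the highest MEF array, against 8.10, 7.73, 8.22 and 8.14 in SGM. No array of either group came near the other, and the log2 difference was 4.49 ± 0.15 (22.4-fold; limma adjusted p = 1.02e-19). Fst was 10.17, 10.28 and 10.74 at the lowest, median and highest MEF array, against 7.30, 6.98, 7.19 and 7.21 in SGM. The gene for the activin antagonist was therefore higher on every MEF array, by 3.24 ± 0.11 (9.43-fold; adjusted p = 1.95e-19). Inhbb reached 8.12, 8.42 and 8.70 (lowest, median, highest) in MEF, against 7.16, 6.82, 6.68 and 6.67 in SGM. It was higher by 1.57 ± 0.14 (2.96-fold; adjusted p = 1.20e-10), with no overlap. Inha, whose product joins the activin subunits to form inhibin, went the other way: 7.44, 7.60 and 7.76 in MEF (lowest, median, highest), against 9.57, 7.98, 8.39 and 8.60 in SGM. It fell by 1.03 ± 0.17 (2.04-fold; adjusted p = 1.07e-05), and SGM replicate 1 was its highest array.

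Of the TGF-beta ligands, Tgfb3 was 11.26, 11.54 and 11.80 in MEF (lowest, median, highest), against 9.35, 9.01, 9.22 and 9.16 in SGM. It was 5.09-fold higher in MEF (2.35 ± 0.11; limma adjusted p = 8.99e-17), with no overlap; a second, dimmer Tgfb3 probe set gave 0.60 ± 0.10. Tgfb2 was 8.06, 8.37 and 8.69 in MEF (lowest, median, highest), against 6.45, 6.61, 7.04 and 6.27 in SGM. The gap between the groups was again clear of overlap, at 1.80 ± 0.14 (3.47-fold; adjusted p = 7.70e-12). Tgfb1 rose too, by 0.21 ± 0.08 only. Ltbp2 was 8.31, 8.56 and 8.77 in MEF (lowest, median, highest), against 6.32, 6.15, 6.30 and 6.15 in SGM. All MEF arrays lay above, by 2.31 ± 0.11 (4.97-fold; adjusted p = 1.31e-16).

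Of the 8 genes at least 2-fold higher in MEF than in SGM, the promoters of the ligand genes Inhba, Inhbb and Tgfb2 and of the matrix protein gene Ltbp2 are shown. Fst and Tgfb3 are named only, and the windows of Fstl1 and Smad1, which held none of the motifs searched, are not printed. Each is the 250 bases before the gene start on the gene's own strand, 5′ to 3′, from RefSeq on GRCm38.p6: Inhba chr13:16011601-16011850 (plus), Tgfb2 chr1:186705990-186706239 (minus), Ltbp2 chr12:84876492-84876741 (minus) and Inhbb chr1:119422249-119422498 (minus). Capitals mark matches on either strand to the letters CAGAC of the CAGA box, which Smad3 and Smad4 can bind, and TATAAA of the TATA box.
Inhba: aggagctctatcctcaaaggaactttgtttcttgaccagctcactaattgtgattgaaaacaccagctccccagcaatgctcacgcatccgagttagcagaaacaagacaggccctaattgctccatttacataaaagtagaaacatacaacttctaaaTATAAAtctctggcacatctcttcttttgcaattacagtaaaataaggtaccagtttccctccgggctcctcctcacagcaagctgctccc
Tgfb2: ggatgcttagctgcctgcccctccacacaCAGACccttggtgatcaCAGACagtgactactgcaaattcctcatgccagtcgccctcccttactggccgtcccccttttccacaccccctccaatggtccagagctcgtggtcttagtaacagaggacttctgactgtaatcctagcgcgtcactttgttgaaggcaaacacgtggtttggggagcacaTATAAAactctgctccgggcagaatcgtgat
Ltbp2: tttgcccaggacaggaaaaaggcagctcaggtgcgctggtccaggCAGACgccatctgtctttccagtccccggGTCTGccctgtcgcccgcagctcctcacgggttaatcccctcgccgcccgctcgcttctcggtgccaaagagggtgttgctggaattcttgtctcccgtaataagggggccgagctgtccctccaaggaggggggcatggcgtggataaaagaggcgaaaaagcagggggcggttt
Inhbb: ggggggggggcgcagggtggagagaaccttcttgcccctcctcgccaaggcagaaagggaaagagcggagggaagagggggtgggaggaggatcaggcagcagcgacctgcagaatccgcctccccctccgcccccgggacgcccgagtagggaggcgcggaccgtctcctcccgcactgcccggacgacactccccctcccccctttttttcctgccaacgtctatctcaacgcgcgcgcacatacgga

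Inhba held a TATAAA 91 to 86 bases before the start, and Tgfb2 held one 31 to 26 bases before it together with CAGAC at 221 to 217 and at 204 to 200. Ltbp2 held CAGAC at 205 to 201 and its reverse complement at 176 to 172, and Inhbb held neither motif. CAGAC or its complement was present in 18 of the 38 family promoters given (47.4%) and in 42.1% of 27025 promoters of the same length. TATAAA was present in 5 of 38 (13.2%) and in 13% of all, the AP-1 element TGANTCA in 0 of 38 and in 6.87% of all, and the cyclic AMP element TGACGTCA in 1 of 38 and in 1.62% of all. None of these motifs overlaps another in the 4 promoters printed. A match is a stretch of letters and not a measured binding site.

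Fstl1 was also higher in MEF, at 12.16, 12.39 and 12.55 (lowest, median, highest), against 10.66, 11.39, 10.89 and 10.83 in SGM. The groups did not overlap and differed by 1.44 ± 0.19 (2.71-fold; limma adjusted p = 2.84e-07). The mediator Smad1 was 12.74 at the median and 13.23 at the highest MEF array, against 11.55, 11.74, 11.58 and 11.62 in SGM. All MEF arrays lay above SGM. Smad1 rose by 1.17 ± 0.19 (2.25-fold; adjusted p = 7.78e-06), and a second Smad1 probe set by 0.89 ± 0.14. Smad2, the activin and TGF-beta mediator, rose by 1.00 ± 0.18, and the other 5 Smads passed no test. Among receptors, Acvr2b was 6.23, 6.38 and 6.64 in MEF, against 7.63, 7.15, 7.58 and 7.37 in SGM. This activin receptor was lower on all MEF arrays, by a log2 difference of -1.05 ± 0.11 (2.06-fold, limma adjusted p = 3.56e-09). Acvr1 (0.43 ± 0.09), Acvrl1 (0.31 ± 0.07) and Bmpr2 (0.34 ± 0.10) were higher. The other probe sets of Acvrl1 gave 0.44 ± 0.08, which was called, and 0.04 ± 0.07, which was not. Of 13 BMP and GDF ligands 5 fell and none rose, led by Bmp7 (-0.81 ± 0.10). Of those that fell, Bmp6, Bmp8b and Gdf10 had every group mean under 7.07, and Bmp5 exceeded it only in SGM. The falls of these ligands may be differences of background. Tgfbi (-0.71 ± 0.13; -0.05 ± 0.13 on its second probe set) and the endocytic kinase gene Bmp2k (-0.55 ± 0.15) also fell, and Tgfb1i1, a focal adhesion adaptor, rose (0.66 ± 0.07). Bmp1, a metalloproteinase that cleaves procollagen and chordin, had probe sets called in opposite directions (-0.30 ± 0.08 for the brighter, 0.67 ± 0.11 for the other). The mean of its probe sets gave 0.19, not called. Dimmer probe sets of Acvr2a (0.64 ± 0.10) and Bmp4 (0.84 ± 0.19) were called higher, although the brighter ones were not called.

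Marker levels moved with this comparison. All 5 mesenchyme markers were higher in MEF (summed linear signal 93700 to 106000, against 31500 to 38000 in SGM), and all 4 erythroid markers were lower (365 to 423, against 18900 to 24300). Of 4 gonad and mesonephros markers 3 were lower (656 to 863 in MEF, against 1490 to 2300 in SGM), as were 2 of 4 endothelial markers (551 to 667, against 859 to 1000). Their part in the differences above was not tested. In bulk RNA, fewer cells of a type and less RNA per cell cannot be told apart, nor can culture, age and tissue here. Of the 33 other pathway genes measured, from a list of 46, 9 were higher and 6 lower.

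**Figure D3:**
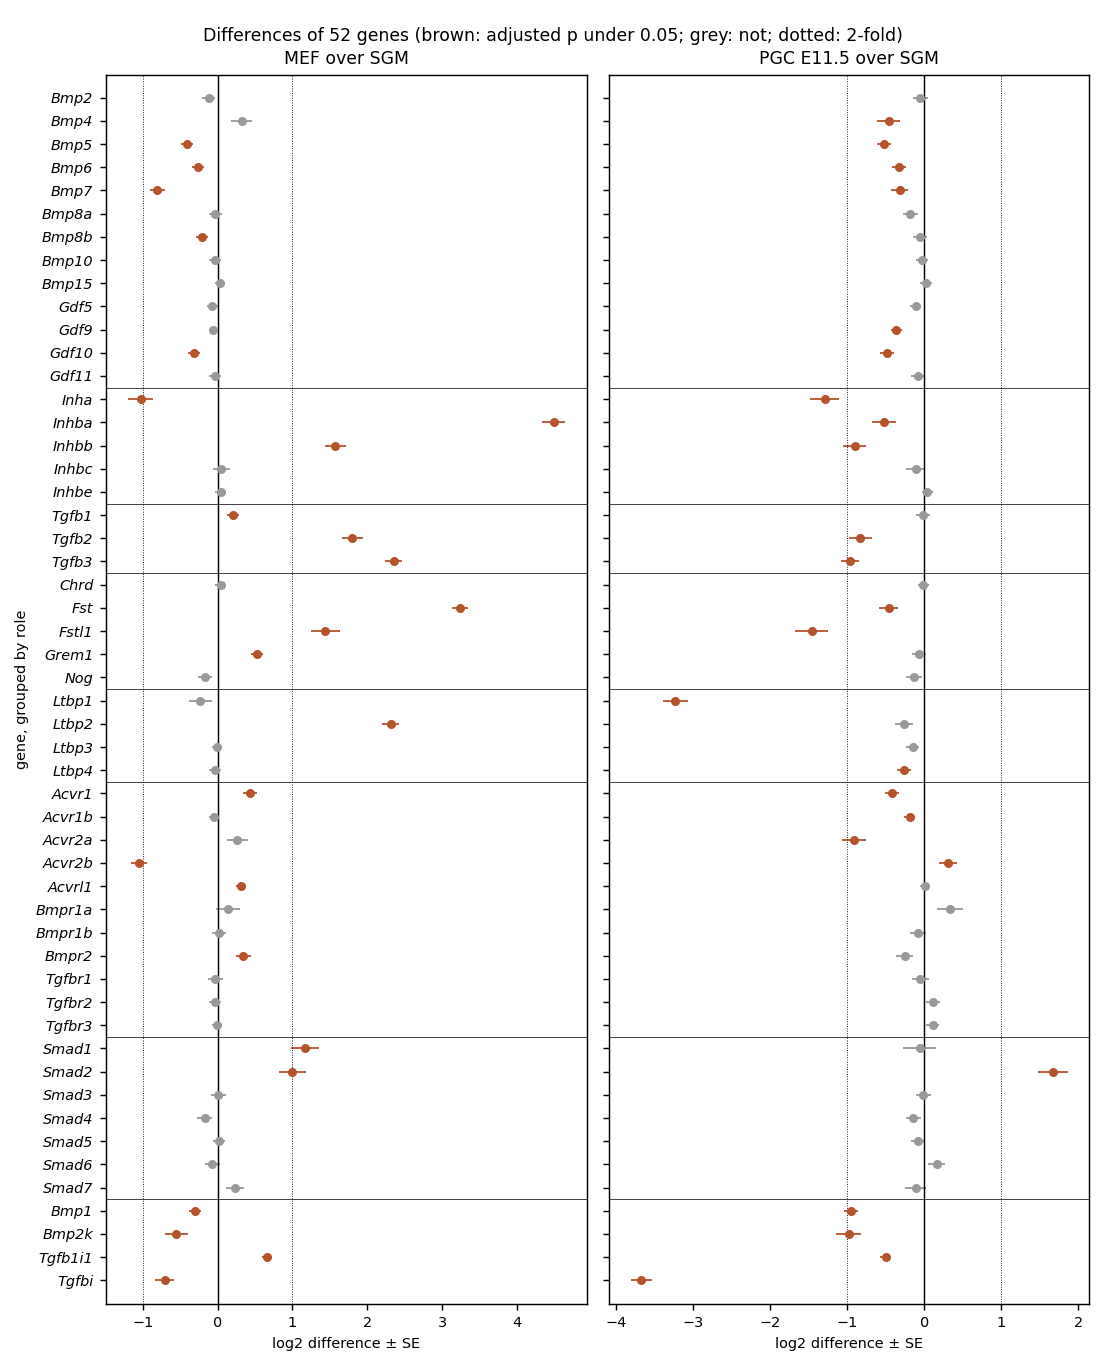
Log2 difference ± SE of the 52 genes by role, MEF over SGM on the left and PGC E11.5 over SGM on the right; brown points were called, grey ones were not, and dotted lines mark 2-fold. Both panels share the SGM arrays: on the left 15 genes were higher and 10 lower, and on the right 2 were higher and 22 lower.

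E11.5 germ cells were compared with the somatic cells sorted from the same tissue and age. Called family members were lower in germ cells except for Smad2 and Acvr2b, and the largest falls were those of Tgfbi and Ltbp1. Called genes numbered 24 of 52 (46.2%), against 50.2% of all genes. Of these, 22 were lower (42.3%; 27% of all genes) and 2 higher (3.85%; 23.2% of all genes). At 2-fold 5 were called (9.62%; 16.6% of all genes). The arrays did not overlap in 21 of the 52 (40.4%), against 47.9% of all genes.

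Tgfbi was 5.77, 5.50, 5.40 and 5.62 in PGC E11.5, against 9.23, 9.18, 8.99 and 9.57 in SGM. The 2 groups were far apart, with a log2 difference of -3.67 ± 0.14 (12.7-fold lower; limma adjusted p = 3.50e-18), although a second, dimmer Tgfbi probe set gave only -0.36 ± 0.14. Ltbp1 was 7.32, 7.08, 7.18 and 7.56 in PGC E11.5, against 10.83, 9.78, 10.69 and 10.77 in SGM. Even the low SGM replicate 2 lay above all germ cell arrays (-3.23 ± 0.16; 9.40-fold lower; adjusted p = 1.84e-15). Fstl1 was 9.66, 9.84, 9.30 and 9.15 in PGC E11.5, against 10.66, 11.39, 10.89 and 10.83 in SGM. It was lower in every germ cell array, by 2.74-fold (-1.46 ± 0.21; adjusted p = 1.11e-06). Inha was 7.34, 7.19, 7.33 and 7.52 in PGC E11.5, against 9.57, 7.98, 8.39 and 8.60 in SGM. It was 2.44-fold lower without overlap (-1.29 ± 0.19; adjusted p = 1.45e-06).

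Smad2 was 11.23, 11.34, 11.06 and 10.24 in PGC E11.5, against 9.14, 9.31, 9.46 and 9.26 in SGM. It was 3.19-fold higher in germ cells (1.67 ± 0.19; limma adjusted p = 2.94e-08), and its lowest germ cell array still exceeded all SGM arrays. Smad1, the BMP-side mediator, gave -0.06 ± 0.21 and was not called, nor were the other 5 Smads. Acvr2b (0.31 ± 0.12) was the other gene called higher. Below 2-fold, Tgfb3 (-0.96 ± 0.12), Tgfb2 (-0.83 ± 0.15), Inhbb (-0.90 ± 0.15), Acvr2a (-0.91 ± 0.15), Bmp1 (-0.95 ± 0.09) and Bmp2k (-0.98 ± 0.16) fell. On their brightest probe sets 6 of 13 BMP and GDF ligands fell by at most 0.52. Among them Bmp6 and Gdf10 had every group mean under 7.07. The second probe sets of Tgfb3 (0.02 ± 0.11) and Acvr2a (0.16 ± 0.10) were not called. A dimmer Bmp4 probe set was called lower by more than 2-fold (-1.49 ± 0.21, against -0.46 ± 0.15 on the brightest). Mesenchyme markers were lower in all 5 (summed signal 1800 to 2590 in PGC E11.5, against 31500 to 38000 in SGM), as were all 4 erythroid markers (458 to 1580, against 18900 to 24300) and 3 of 4 gonad markers (516 to 605, against 1490 to 2300). Endothelial markers were lower in 2 of 4 (449 to 512, against 859 to 1000) and macrophage markers in 3 of 4 (249 to 304, against 306 to 385). Their part in these differences was not tested. Of 33 other pathway genes 13 were higher and 8 lower.

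The mean of the 6 pluripotent groups was set against the mean of the 4 somatic groups. The SE and p of this comparison come from the spread of arrays within groups. They do not measure how far groups of the same kind differ from each other. Tgfbi and Tgfb2 were the only family members called at 2-fold (3.85%; 8.91% of all genes), both lower in pluripotent cells. At any size 32 of 52 were called (61.5%), against 63.9% of all genes, 9 of them higher (17.3%; 29.1% of all genes) and 23 lower (44.2%; 34.9% of all genes). Without MEF 13 were higher and 15 lower, and without SGM 12 and 19. These 2 splits are given for the members alone and do not show whether all genes shifted alike.

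Single arrays of Tgfbi ran from 5.40 to 6.34 in the pluripotent groups, and from 4.75 in NSC to 9.57 in SGM among the somatic groups. The NSC arrays lay below all pluripotent arrays and the other somatic arrays above them (-1.72 ± 0.07; 3.29-fold lower; limma adjusted p = 2.45e-17). Without NSC and HSC the log2 difference was -3.05, without MEF -1.39 and without SGM -1.16. The second, dimmer Tgfbi probe set gave -0.02 ± 0.07, which was not called (adjusted p = 0.866), and the mean of both gave -0.87. Tgfb2 ran from 4.82 to 6.10 in the pluripotent groups, and from 5.76 in HSC to 8.69 in MEF among the somatic groups. Only the adult groups overlapped with pluripotent arrays (-1.14 ± 0.08; 2.20-fold lower; adjusted p = 9.62e-13); the difference was -0.59 without MEF and -1.88 without NSC and HSC. Bmp1 was the 1 family member without overlap (1.92%; 1.73% of all genes): its pluripotent arrays stayed at or below 8.13, and its somatic arrays at or above 8.37 (-0.84 ± 0.05). The dimmer Bmp1 probe set showed no such separation (-0.31 ± 0.06). On it the means of NSC (6.63) and HSC (6.80) lay under that of PGC E13.5 male (7.12). All 3 TGF-beta ligands and 4 of 5 activin and inhibin subunits were called lower, Fst was lower by 0.80 ± 0.07, and no gene of these 3 roles was higher except the antagonist Chrd (0.13 ± 0.04). Smad2 (0.51 ± 0.11), Smad3 (0.29 ± 0.06) and Smad7 (0.31 ± 0.07) were higher and Smad1 (-0.60 ± 0.11) lower. Several of these directions depended on which somatic groups entered. Without MEF, Inhba (0.60), Tgfb3 (0.36), Fstl1 (0.47) and Ltbp2 (0.42) were called higher in pluripotent cells, and Fst (0.11) and Smad1 (0.07) were not called. Without NSC and HSC, Smad7 was called lower (-0.39) and Smad3 was not called (-0.07). The 2 Bmp4 probe sets were called in opposite directions (0.20 ± 0.08 and -0.66 ± 0.11; -0.23 for their mean). Other pathway genes were higher in 14 and lower in 8 of 33.

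Germ cells of each sex at E13.5 were set against the same 4 mixed-sex arrays of E11.5, so both comparisons share those arrays. Fstl1, Smad1 and Smad2 were lower at E13.5. In females 9 of 52 genes were called (17.3%; 31.5% of all genes), 6 higher (16.3% of all genes) and 3 lower (5.77%; 15.2% of all genes). In males 28 were called (53.8%; 52.4% of all genes), 24 higher (46.2%; 31.7% of all genes) and 4 lower (7.69%; 20.7% of all genes). At 2-fold 2 were called in females (3.85%; 5.88% of all genes) and 3 in males (5.77%; 8.33% of all genes). Array centring turned the female split into 3 and 3 and the male one into 13 and 4. Counts over all genes after centring are not given, so these splits alone do not show a shift of the members. Single arrays mattered: the female count was 5, with 2 higher, without PGC E11.5 replicate 2 or without female replicate 1, and 3 were higher without female replicate 2. The male count was 18 and 15 without PGC E11.5 replicates 1 and 2, and 16 without male replicate 3.

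Fstl1 was 7.50, 8.25 and 8.35 in PGC E13.5 female and 7.85, 6.97 and 7.59 in PGC E13.5 male, against 9.66, 9.84, 9.30 and 9.15 in PGC E11.5. Every E13.5 array lay below every E11.5 array. The difference was -1.45 ± 0.23 in females (2.74-fold lower; limma adjusted p = 1.96e-05) and -2.02 ± 0.23 in males (4.05-fold lower; adjusted p = 1.93e-07). Smad1 was 9.66, 9.77 and 10.66 in PGC E13.5 female and 10.53, 10.99 and 10.10 in PGC E13.5 male, against 11.64, 12.03, 11.58 and 10.98 in PGC E11.5. Female arrays were all lower, whereas male replicate 2 just passed the lowest E11.5 array. The difference was -1.53 ± 0.23 in females (2.90-fold lower; adjusted p = 1.06e-05) and -1.02 ± 0.23 in males (2.03-fold lower; adjusted p = 7.28e-04). The second Smad1 probe set gave -1.45 ± 0.17 in females and -0.54 ± 0.17 in males, both called. Smad2 was 9.78, 10.02 and 10.40 in PGC E13.5 female and 9.86, 10.01 and 9.62 in PGC E13.5 male, against 11.23, 11.34, 11.06 and 10.24 in PGC E11.5. It fell by 1.14 ± 0.21 in males without overlap (2.20-fold; adjusted p = 1.03e-04) and by 0.90 ± 0.21 in females, where 1 array of each group overlapped.

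In males the rises were below 2-fold and spread over roles: 9 of 13 BMP and GDF ligands, 4 of 5 antagonists and 3 of 4 Ltbp genes. Of all genes 31.7% were called higher. Among the ligands called, Bmp6, Bmp8a, Bmp8b, Gdf10 and Gdf11 had every group mean under 7.07, and Bmp5 exceeded it only in SGM. The rises of these ligands may be differences of background. Inha (0.66 ± 0.20), Tgfbi (0.65 ± 0.15), Bmp4 (0.60 ± 0.17), Ltbp4 (0.47 ± 0.10), Nog (0.46 ± 0.11) and Ltbp3 (0.44 ± 0.09) led them. The median difference was 0.23 over the 52 genes and 0.15 over all genes. The second Tgfbi probe set was not called in males (0.30 ± 0.15). In females Acvr2a (0.73 ± 0.16) and Bmp2k (0.57 ± 0.17) were the largest rises, and the second Acvr2a probe set gave -0.08 ± 0.11 and was not called. Mesenchyme markers were called higher in 3 of 5 in males and 1 of 5 in females (summed signal 2290 to 2780 in females and 2930 to 3660 in males, against 1800 to 2590 at E11.5). Erythroid markers were called higher in 1 of 4 in each sex (1080 to 1400 in females and 1440 to 1920 in males, against 458 to 1580 at E11.5). Endothelial markers were called higher in 2 of 4 in each sex (525 to 590 in females and 560 to 635 in males, against 449 to 512), and gonad markers in 2 of 4 in males (640 to 681, against 516 to 605) and none in females (551 to 667). Germ cell markers were called lower in 3 of 4 in each sex (3830 to 4600 in females and 3830 to 4800 in males, against 5440 to 8630), and pluripotency markers likewise (7590 to 9480 and 9830 to 10900, against 12400 to 13400). The part of these markers was not tested. Other pathway genes rose in 7 and fell in 7 of 33 in females, and rose in 10 and fell in 12 in males.

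Between the sexes at E13.5, 2 of 52 genes were called (3.85%; 8.62% of all genes), both higher in females (6.29% of all genes; 2.33% were lower) and neither at 2-fold (1.14% of all genes). Acvr2a, an activin receptor, was 7.62, 7.47 and 8.12 in PGC E13.5 female, against 7.01, 7.34 and 6.73 in PGC E13.5 male. The groups did not overlap (0.71 ± 0.17; 1.64-fold; limma adjusted p = 0.00847). Acvr2a passed no test without female replicate 3 (0.52) or male replicate 3 (0.56), and its second probe set gave 0.00 ± 0.12. Bmp2k was 5.53, 5.60 and 6.29 in PGC E13.5 female, against 5.20, 5.34 and 5.11 in PGC E13.5 male. Female replicate 3 stood apart, and without it the difference of 0.59 ± 0.19 (1.51-fold; adjusted p = 0.0447) became 0.35 and was not called. Bmp2k also lost its call without SGM replicate 4 or MEF replicate 4, and all of its group means were under 7.07. The count was 0 without male replicate 3, 4 without female replicate 1, and 1 without male replicate 1 or 2, female replicate 3, PGC E11.5 replicate 1 or 3, EGC replicate 1 or 2, or MEF replicate 6. Over all genes, 414 were called without male replicate 3 and 389 without female replicate 3, against 711 with every array. Fstl1 (0.56 ± 0.24), Smad1 (-0.51 ± 0.24) and Smad2 (0.24 ± 0.22) were not called. The second Smad1 probe set, nearly as bright as the first (mean 10.66 against 10.82), was called lower in females (-0.92 ± 0.18, limma adjusted p = 0.00131), as was a dimmer Bmp4 probe set (-1.25 ± 0.24), so the call of Smad1 depended on the probe set. With the mean of all probe sets, 2 members were called lower in females. Other pathway genes were higher in females in 8 and lower in 3 of 33.

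ESC were set against the ICM from which such lines are derived. Ltbp4 was the 1 family member at 2-fold (1.92%; 6.08% of all genes). Of the 52 genes 10 were called (19.2%; 27.8% of all genes), 6 higher (15.3% of all genes) and 4 lower (7.69%; 12.6% of all genes), or 5 and 6 after array centring. Leaving out ESC replicate 2 gave 5 called genes (1477 over all genes, against 2297 with every array), and leaving out ICM replicate 2 gave 6. The lower count was 1 without ICM replicate 1, and 2 without ICM replicate 2 or either ESC array. Ltbp4, a matrix protein that binds latent TGF-beta, was 7.94 and 7.82 in ESC, against 6.96, 6.75 and 6.56 in ICM. Both ESC arrays were far above (1.12 ± 0.12; 2.18-fold; limma adjusted p = 3.32e-08). Gdf11, a ligand close to myostatin, was 6.18 and 5.90 in ESC, against 5.57, 5.51 and 5.35 in ICM. It was higher without overlap (0.56 ± 0.11; 1.48-fold; adjusted p = 3.33e-04), but all of its group means were below 7.07. The receptors Acvr2b (0.71 ± 0.15), Tgfbr1 (0.49 ± 0.14) and Tgfbr2 (0.33 ± 0.12) were higher in ESC, and Ltbp2 (-0.59 ± 0.15), Smad3 (-0.41 ± 0.14), Gdf10 (-0.33 ± 0.12) and Gdf9 (-0.24 ± 0.09) were lower. Of these, Tgfbr1, Tgfbr2, Smad3 and Gdf10 also had every group mean below 7.07. Probe sets other than the brightest were called for Bmp4 (-1.53 ± 0.27), Tgfb3 (0.92 ± 0.14), Smad1 (0.66 ± 0.20) and Tgfbi (-0.54 ± 0.18), none of which was called on its brightest. Trophectoderm markers were lower in 3 of 4 (summed signal 664 to 771 in ESC, against 987 to 6410 in ICM) and primitive endoderm markers in 2 of 4 (1000 to 1030, against 1450 to 2470). Their part was not tested, and strain, culture and isolation cannot be told apart from the cell type. Other pathway genes were higher in 6 and lower in 4 of 33.

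EGC and ESC, both male lines in LIF and serum, differed by at least 2-fold in 3 family members. Bmpr1a and Smad2 were lower in EGC, and Smad1 was higher. Of the 52 genes 21 were called (40.4%; 39.5% of all genes), 14 higher (26.9%; 20.9% of all genes) and 7 lower (18.6% of all genes), and 3 passed 2-fold (5.77%; 8.43% of all genes). Without ESC replicate 2 the split was 7 and 7 (2147 calls over all genes, against 3256 with every array), and without ESC replicate 1 it was 12 and 5. Bmpr1a was 5.84, 5.82 and 5.46 in EGC, against 7.26 and 7.76 in ESC. The arrays were well apart (-1.80 ± 0.22; 3.49-fold lower; limma adjusted p = 4.32e-07). Smad1 was 10.51, 10.76 and 11.03 in EGC, against 9.21 and 9.40 in ESC. It was higher on all EGC arrays (1.46 ± 0.27; 2.74-fold; adjusted p = 1.26e-04), but its second probe set gave 0.44 ± 0.20 and was not called (adjusted p = 0.0851). Smad2 was 9.59, 9.66 and 9.50 in EGC, against 10.58 and 10.68 in ESC. It was lower without overlap (-1.05 ± 0.25; 2.07-fold; adjusted p = 0.00154).

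Other EGC falls were in Tgfbr1 (-0.73 ± 0.14), Tgfbr2 (-0.67 ± 0.12), Smad4 (-0.60 ± 0.14), Gdf11 (-0.42 ± 0.11) and Acvr1 (-0.42 ± 0.12). Other rises were in Ltbp1 (0.93 ± 0.21), Ltbp2 (0.91 ± 0.15), Smad3 (0.57 ± 0.14), Fst (0.57 ± 0.16), Bmp5 (0.52 ± 0.12) and Acvr1b (0.47 ± 0.10). Every group mean of Tgfbr1, Tgfbr2, Gdf11, Acvr1 and Smad3 was under 7.07, so these genes may not exceed background. Bmp2 had probe sets called in opposite directions (0.40 ± 0.13 for the brightest, -0.54 ± 0.12 for another; -0.11 for their mean, not called). The dimmer Acvr2a probe set was called lower (-0.51 ± 0.13). The 4 germ cell markers were lower in EGC (summed signal 1850 to 2120, against 4000 to 4150 in ESC), and 3 of 5 mesenchyme markers were higher (3290 to 3510, against 2200 to 2380), as were 2 of 4 erythroid markers (969 to 1110, against 637 to 653). Their part was not tested, and passage cannot be told apart from the line. Of 33 other pathway genes 10 were higher and 9 lower.

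EGC, derived at E12.5, were also set against male germ cells of E13.5. Fstl1 was higher in EGC and was the 1 family member at 2-fold (1.92%; 7.4% of all genes). Called genes numbered 9 of 52 (17.3%; 30.7% of all genes), 2 higher (3.85%; 14.8% of all genes) and 7 lower (15.9% of all genes). The split was 3 and 5 after array centring, and the count was 5, with 3 lower, without EGC replicate 3. Without male replicate 2 or 3, 4 were lower. Fstl1 was 9.25, 9.15 and 9.30 in EGC, against 7.85, 6.97 and 7.59 in PGC E13.5 male. All EGC arrays were higher (1.77 ± 0.24; 3.40-fold; limma adjusted p = 1.91e-06). Smad4, the mediator shared by both arms, was 8.78, 8.33 and 8.95 in EGC, against 9.21, 9.45 and 9.08 in PGC E13.5 male. It was lower without overlap (-0.56 ± 0.12; 1.47-fold; adjusted p = 7.30e-04). Bmpr1a (-0.88 ± 0.20), Tgfbi (-0.61 ± 0.16), Bmp7 (-0.49 ± 0.13) and Tgfb3 (-0.42 ± 0.13) were lower too, and Ltbp4 (0.46 ± 0.11) was higher. The second probe sets of Tgfbi (-0.27 ± 0.16) and Tgfb3 (0.02 ± 0.13) were not called. Germ cell markers were lower in 3 of 4 (1850 to 2120 in EGC, against 3830 to 4800 in PGC E13.5 male). Endothelial markers were lower in 3 of 4 and higher in 1 (471 to 507, against 560 to 635), and pluripotency markers were higher in 3 of 4 (12800 to 16200, against 9830 to 10900). Their part was not tested. Other pathway genes were higher in 13 and lower in 3 of 33.

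**Figure D4:**
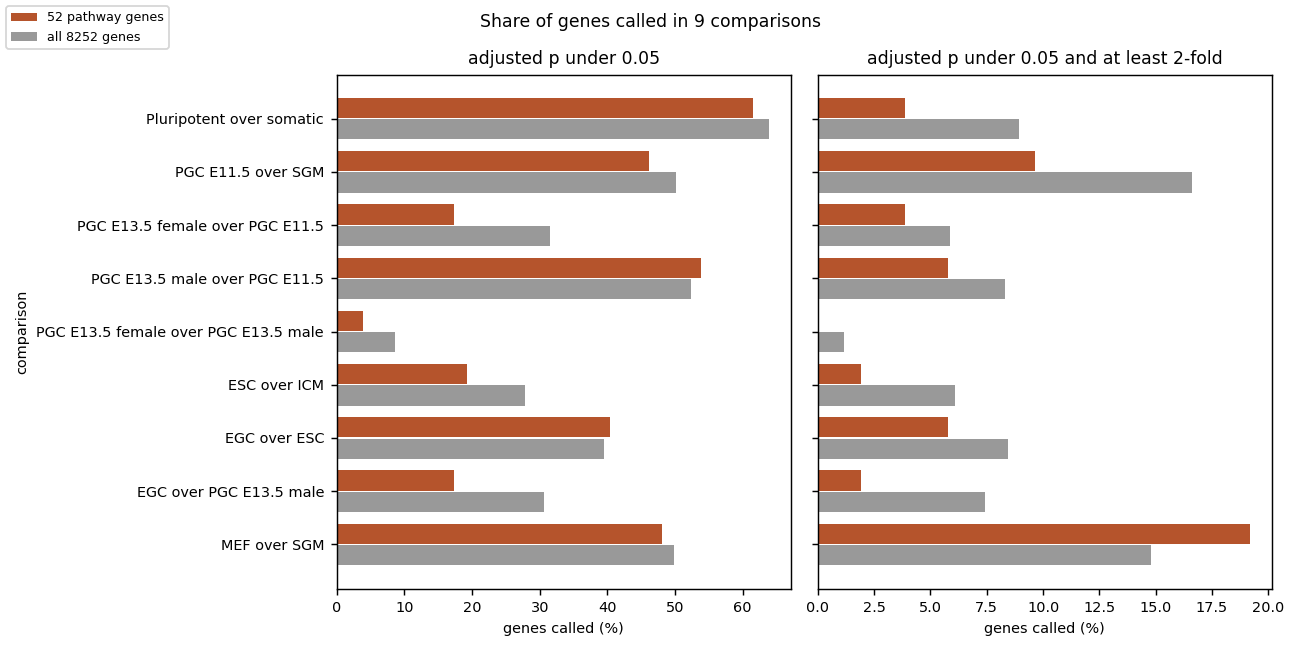
Share of genes called in each of the 9 comparisons, in percent, for the 52 family members (brown) and all 8252 genes (grey), at any size on the left and at 2-fold on the right. At 2-fold the family share exceeded the share of all genes in MEF over SGM alone (19.2% against 14.8%), and in the comparison of the sexes no member passed.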

How the data were processed

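Affymetrix arrays measured mouse RNA. Column-purified, DNase-treated RNA went through 2 in vitro transcription rounds and carried a biotin label, per the labels' protocols. The authors deposited log2 values, 1 per probe set and array; the submitters' processing notes name RMA (background correction, normalization between arrays and probe set summary) without a version. On MEF arrays 13 probe sets exceed 16, the ceiling of a 16-bit scanner, so a further step is possible. The number of arrays limits precision; no detection calls were used.

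The platform table gave 1 symbol for 10855 of 12488 probe sets and several for 396; probe sets with several symbols and 66 controls were not used. Each gene took its brightest probe set over the 32 arrays used; 2076 genes had several. The 2 columns left out equal group means within 1e-06. In R 4.3.3, lmFit and eBayes of limma 3.58.1 estimated the group means, all 10 groups sharing 1 spread estimate (22 residual degrees of freedom, median residual SD 0.161), with no filter on low signal. The fit was tested on simulated data.

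The family members, gene lists and rules were chosen with earlier results of these data known. Arrays are printed for called genes at 2-fold, up to 6 in each direction (for MEF over SGM, 2 further genes at 2-fold are added), or for the 2 called genes of smallest p where fewer pass; levels in all groups for genes with a 4-fold range. Replicate numbers have no stated meaning across groups, and correlations of like-numbered deviations ran from -0.566 to 0.521, so numbers were not taken as pairs. Alternatives were array weights, array centring, other probe set rules, a filter on dim genes, updated symbols, moderated trend, fewer groups, all 34 columns, a replicate block and each array left out; leaving out NSC and HSC together was added after seeing the data.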

Additional observations from a re-analysis of the deposited data

Results flagged for a closer look

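Of 156 groups of 4 or more arrays among the 52 genes, 5 (3.21%) had an array far from the rest by Dixon's criterion, where chance gives about 1 in 20. Ltbp1 was 9.78 in SGM replicate 2, with the nearest other array at 10.69 and the farthest at 10.83. Bmpr1b was 4.86 in MEF replicate 6 (others 5.11 to 5.23), and Gdf5 was 5.87 in PGC E11.5 replicate 1 (others 6.07 to 6.11). Nog was 6.66 in PGC E11.5 replicate 2 (others 6.93 to 6.98), and Ltbp2 was 6.18 in PGC E11.5 replicate 4 (others 5.87 to 5.91).

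The change since E11.5 differed between the sexes at E13.5 for Acvr2a (female minus male log2 change 0.71) and Bmp2k (0.59). Because both changes are read from the same E11.5 arrays, this is the female over male difference itself.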

How the results depend on the processing

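Of 160 calls of a family member in a comparison, 63 lost the call under at least 1 alternative and 17 turned direction under at least 1. In pluripotent over somatic the direction turned without MEF for Acvr2b (-0.12), Fst (0.11), Fstl1 (0.47), Inhba (0.60), Ltbp1 (0.17), Ltbp2 (0.42), Smad1 (0.07) and Tgfb3 (0.36), and without SGM for Ltbp1 (0.25). It turned without NSC and HSC for Bmp4 (-0.16), Bmp7 (0.24), Inhbe (0.12), Smad3 (-0.07), Smad7 (-0.39), Tgfbr1 (0.24) and Tgfbr2 (0.21). With the mean of all probe sets it turned for Bmp4 in pluripotent over somatic (-0.23), Bmp2 in EGC over ESC (-0.11) and Bmp1 in MEF over SGM (0.19). Array weights gave 17 called family members in PGC E13.5 female over PGC E11.5 (9 as reported), 5 between the sexes (2) and 5 in ESC over ICM (10). Array centring gave 17 in PGC E13.5 male over PGC E11.5 (28) and 1 between the sexes. With only the groups compared in the fit, 1 was called between the sexes and 2 in ESC over ICM; all 34 columns gave 16 in ESC over ICM. Without the dimmest 25% of genes, 5 were called in ESC over ICM and 12 in EGC over ESC (21); that filter keeps only 33 members. With single arrays left out, counts ran from 29 to 32 (pluripotent over somatic), 20 to 25 (PGC E11.5 over SGM), 5 to 11 (female E13.5 over E11.5), 15 to 29 (male E13.5 over E11.5), 0 to 4 (sexes), 5 to 11 (ESC over ICM), 14 to 22 (EGC over ESC), 5 to 10 (EGC over PGC E13.5 male) and 23 to 26 (MEF over SGM). Over all genes, in the same order, counts ran from 5027 to 5361, 3782 to 4222, 1860 to 2977 and 3237 to 4503. The remaining ranges were 389 to 817, 1362 to 2402, 2147 to 3405, 1887 to 2671 and 3727 to 4179. Except in MEF over SGM, splits after array centring or without whole groups are given for the members alone. They do not show whether all genes shifted alike. Apart from what the settings above leave out by construction, the cause was not tested. Over all genes, array weights gave 4146 calls in the female comparison with E11.5 (2601) and 1247 between the sexes (711), and the compared groups alone gave 778 in ESC over ICM (2297). Among genes whose arrays are printed, Acvr2a lost its call between the sexes with the mean of its probe sets (0.36) and in the compared groups alone (0.71), as did Bmp2k with array centring or the compared groups alone (0.59 in both) and Gdf11 in ESC over ICM in the compared groups alone (0.56). With replicate number as a block, members called were 29, 24, 10, 26, 2, 9, 22, 9 and 25 in the 9 comparisons, in the order of the ranges above. Among the genes whose arrays are printed, the block ended the call of Bmp2k (0.59) and no other. Between the sexes the block gave 1 member higher and 1 lower in females (518 and 197 over all genes). Without it the split was 2 and 0 (519 and 192 over all genes). Low signal limits what can be read: 18 of 52 members stayed within the range of bacterial controls in every group mean.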

Other observations

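Of the 33 measured genes of the wider pathway list, 8 were called higher and 3 lower in female than in male germ cells of E13.5; those with the largest differences, chosen after their values were seen, are given here. Id1, an inhibitor of differentiation that BMP signals are known to induce, was higher in female than in male germ cells by 3.30 ± 0.25 log2 units (limma adjusted p = 3.38e-10). Its relatives Id2 and Id3 were higher by 2.23 ± 0.44 and 1.56 ± 0.18. The homeobox genes Msx2 (2.01 ± 0.19, limma adjusted p = 4.81e-08) and Msx1 (1.23 ± 0.17) were higher as well. Lefty1 and Nodal were lower in females (-1.95 ± 0.14 and -1.66 ± 0.18).

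Of the same list, in MEF over SGM the matrix-associated gene Ccn2 was 65.7-fold higher (6.04 ± 0.16, limma adjusted p = 6.05e-22). The Id genes did not move alike: Id1 (-1.78 ± 0.20), Id2 (-2.24 ± 0.34) and Id3 (-0.61 ± 0.14) were lower, and Id4 (0.74 ± 0.11) was higher.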
